A study of Mus musculus with 12 samples.

Results

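The m6A peaks of mouse spermatogonial stem cells (SSCs) are described from the 3 immunoprecipitation (IP) libraries titled SSC, out of 6 IP libraries and 12 samples in the series. Members were chosen by sample title alone. They hold 72100 of the 118075 peaks in all 6 IP lists: 27597 in SSC replicate 1, 19728 in replicate 2 and 24775 in replicate 3. The cells come from testis and had been grown on mitotically inactivated STO fibroblast feeders in medium with GDNF at 20 ng/mL, EGF at 20 ng/mL, bFGF at 10 ng/mL and LIF at 10 ng/mL. The other 6 samples are neural stem cell-like cells (iNSCs) derived from such cells by retinoic acid and a neural medium, and they serve here only in a check of the labels. No genotype, strain or age is given in the labels, and no genetic change or treatment sets the 3 SSC libraries apart from each other. The replicates are numbered but not said to be separate cultures, so the spread between them may be technical. Each SSC library also has an input sample, which was not analysed here. Without the input, genes that are silent and genes that are transcribed but unmethylated both appear as genes without a peak.

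N6-methyladenosine (m6A) is a methyl group on adenosines of mRNA, placed by a METTL3 and METTL14 complex, removed by FTO and ALKBH5 and bound by YTH-domain proteins. In mammalian mRNA it often lies in the sequence GGAC or a close relative, and it is known for gathering in long internal exons and near stop codons. SSCs are the self-renewing germ cells at the base of the seminiferous tubule, held in culture by GDNF, and their progeny enter meiosis in response to retinoic acid.

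The labels needed 2 decisions. The cell type field names the opposite cell type for all 12 samples, whereas titles and source names go together and were followed. By title and type the series is a MeDIP and methylation study, but its protocols describe pull-down of fragmented mRNA of about 200 nt with an m6A antibody. The 4 marker genes given for the SSCs went with the titles: Ddx4, Zbtb16, Sall4 and Smc1b each had a peak in all 3 SSC lists and in none of the 3 iNSC lists. The marker list, like the others, was chosen with earlier results of these data known, so this is not an independent check. The share of all genes with this pattern was not counted, and the muscle genes Ttn and Neb showed it too. Not all other germ-line genes showed the pattern. Dazl, an RNA-binding protein of germ cells, had 1, 0 and 0 SSC peaks, and Sycp1, the transverse filament of the synaptonemal complex, was not limited to SSCs, with 5, 2 and 1 peaks called in iNSCs beside 24, 22 and 19 here.

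Peaks over annotated gene starts are shown first because they tie peaks to sequence. The 6 genes below are the first of the named genes whose peak covered the first 50 transcribed bases of an annotated start in all 3 lists. Sequences are RefSeq GRCm38.p6, the first 30 transcribed bases as annotated, in 5′ to 3′ direction. Capitals mark the first annotated base and any GGAC. Nfkbia, the IκBα inhibitor of NF-κB, starts at chr12:55492618-55492647 on the minus strand. Syne2, a nuclear envelope spectrin-repeat protein, starts at chr12:75818318-75818347 on the plus strand. Ktn1, a kinesin-binding membrane protein, has 2 annotated starts. The one shown, chr14:47663756-47663785 on the plus strand, lies inside a gene span that begins at 47648274. Eif5b, the translation factor that joins ribosomal subunits, starts at chr1:37998010-37998039 on the plus strand. Map7d2, a microtubule-associated protein, also has 2 annotated starts. The one shown is chrX:159414572-159414601 on the plus strand, in a gene span that begins at 159414492. Ythdc1, the nuclear m6A reader, has its annotated start at chr5:86804266-86804295 on the plus strand. Its gene span begins at 86803980 and its peak at 86804221, both before this window.
Nfkbia: Gagaaatcccctgccagcgtttatagggcg
Syne2: Agtccagagcggagcgcgctcggctgcgcc
Ktn1: Attctgcacaggctctcgttaagagaagac
Eif5b: Acctggccggcggctctactggagacgctc
Map7d2: Gcgagcccgggcagagggaggccggcgcgc
Ythdc1: Gcgccgcccggcgtcgccatctgtgtctct

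None of these 6 starts holds GGAC in its first 30 or first 50 bases. The rest of each peak was not searched, so GGAC may lie further along it. The Eif5b start peak was 315 bases long and scored 3100 in all 3 lists, a value at which many of the authors' scores pile up although a few in each list were higher. The Ythdc1 start peak of 371 bases scored 2755, 3100 and 3100, and the Map7d2 start peak of 321 bases scored 1200, 3100 and 3100. Start peaks of the other 3 genes stayed under 3100 in every list. They scored 2046, 1936 and 1164 for Ktn1 over 560 bases, 170, 212 and 713 for Syne2 over 161 bases and 117, 82.7 and 419 for Nfkbia over 348 bases. In all 6 genes the peak had identical edges in the 3 lists.

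For contrast, 4 members of the gene lists with GGAC in the first 30 bases are printed, those with the highest lowest score over the 3 lists. H2ac13 (chr13:21716412-21716441, plus) and H2ac24 (chr13:21833446-21833475, minus) encode copies of histone H2A. Lgr4 (chr2:109917647-109917676, plus) encodes a receptor for R-spondins, which enhance Wnt signalling, and Jun (chr4:95052193-95052222, minus) encodes a subunit of the AP-1 transcription factor.
H2ac13: CagctgagttatgtctGGACgcggcaagca
H2ac24: AtgtctGGACgcggcaagcagggtggcaag
Lgr4: AgaagggaaaaGGACgcgcggagcgggagc
Jun: GttgagctcaggctggataaGGACtcagag

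H2ac13 scored 3100 in every list and H2ac24 scored 2992, 3100 and 3100. Their GGAC lies in the same stretch of sequence, so the 2 windows are not separate examples. The H2ac24 peak reached past the annotated start, to position 21833575, in each list. The histone genes exist in near-identical copies, so reads may be shared among them. Lgr4 scored 1620, 3100 and 3100 over 659 bases in each list. Jun scored 783, 3100 and 659, and its start peak was 2685, 2944 and 1346 bases long, so the 3 lists did not place its edge alike.

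Over all annotated starts of protein-coding genes, a start peak in all 3 lists was rare. Of 21263 starts of 17492 genes, 724 (3.4%) had a peak over the first 50 bases in all 3 lists, in 698 genes. Single lists held more, with 1623, 1934 and 2319 starts. GGAC, read on the transcribed strand, was in 18.4% of the 724 windows (133), against 20.0% of all windows and 20.9% of the 4040 windows without a start peak in genes that had peaks elsewhere in all 3 lists. Its reverse complement GTCC was in 15.3% of the 724 windows, 18.8% of all windows and 20.6% of the 4040. GGACT, which contains GGAC, was in 4.28%, 5.86% and 5.62%. The first transcribed base was A in 24.6% of the 724 windows, 37.4% of all windows and 29.7% of the 4040. GC content was 67.9%, 60.1% and 64.2% in the same order. These windows differ in base composition and share genes with several starts, so the shares are a description. They cover the first 50 bases only, and GGAC elsewhere in a start peak was not counted.

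Over all genes with an annotated start, 698 of 17492 had a start peak in all 3 lists. Start peaks were counted by overlap with the start, so a peak could count for neighbouring genes. Such a peak need not be among those placed in the gene in the counts further on. Replication-dependent histones had the most by count among the gene lists, 15 of 58 members with an annotated start. SR proteins and hnRNPs, which guide splicing, had 9 of 43, among them Hnrnpm, Hnrnpu, Srrm1 and Srrm2. Proteasome subunits had 6 of 32, and meiotic cohesin and synaptonemal complex genes 6 of 22, with Sycp3, Syce1, Syce2, Pds5b and Wapl. Immediate-early genes had 5 of 19, namely Fosb, Ier5, Ier5l, Jun and Junb. Solute carriers had 5 of 279. The ribosomal protein list had 0 of 63, the Hox list 0 of 22 and the feeder fibroblast list 0 of 14. Other lists had 0 too, among them meiotic recombination and entry (0 of 23) and imprinted genes (0 of 24). Beside the share over all genes, a count of 0 in lists this short is not read as a lack.

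At gene level, SSC peaks were placed in 6220 of 21887 protein-coding genes in all 3 lists (28.4%). A peak was placed in 9912 genes in replicate 1, 8162 in replicate 2 and 9932 in replicate 3, a mean of 9335 ± 1016 (SD, n = 3). Replicate 2, the shortest list, held the fewest genes. Another 3019 genes had a peak in 2 lists and 3308 in 1 list, and 9340 (42.7%) had none in any list. Replicates 1 and 2 shared 6964 genes, 70.3% of the genes of replicate 1 and 85.3% of those of replicate 2. Replicates 1 and 3 shared 7790 (78.6% and 78.4%), and replicates 2 and 3 shared 6925 (84.8% and 69.7%).

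Single peaks recurred less than genes. Merging peaks that overlapped on the same strand gave 43623 regions, of which 9138 (20.9%) were in all 3 lists and 24925 (57.1%) in 1 list. Regions in all 3 lists held 33.9%, 46.9% and 37.5% of the peaks of the 3 replicates. The median score of those peaks was 431, 503 and 470, against 102, 97.8 and 98.3 for peaks of regions found in 1 list. Of the 9138 regions, 5322 had the same start and the same end in all 3 lists. Scores carry no stated unit and are used only to rank peaks within a list.

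**Figure D1:**
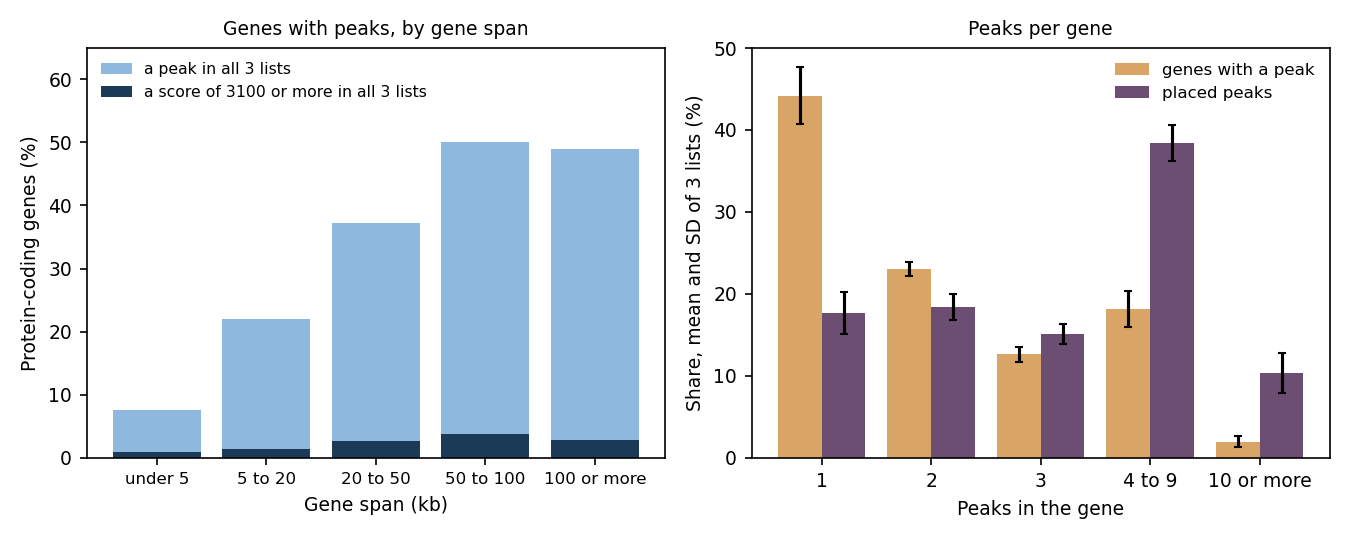
Left, share of protein-coding genes (%) with a peak in all 3 SSC lists and with a score of 3100 or more in all 3, by gene span in kb. Right, share (%) of genes with a peak and of placed peaks by the number of peaks in the gene, mean with SD of 3 lists; genes with 1 peak are 44.2% of genes and hold 17.7% of peaks.

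Genes with peaks in all 3 lists were longer than genes at large. Their median span was 36322 bases, against 17169 for all protein-coding genes. Of genes under 5 kb, 7.59% had a peak in all 3 lists, and the share was 21.9% from 5 to 20 kb, 37.2% from 20 to 50 kb, 50.1% from 50 to 100 kb and 48.9% at 100 kb or more. Gene span was not held equal between the gene classes described further on, and the median span is printed for some of them.

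Peaks per gene averaged 2.73 in replicate 1, 2.38 in replicate 2 and 2.44 in replicate 3, a mean of 2.52 ± 0.187 (SD, n = 3). Genes with 1 peak made up 44.2% ± 3.48 of the genes with a peak, and genes with 10 or more made up 1.99% ± 0.631 but held 10.4% ± 2.43 of the peaks. In all 3 lists 782 genes had exactly 1 peak and 83 had 10 or more. Across the 6220 genes the number of peaks followed the gene span with a Spearman rho of 0.516, given as a description because genes of a list share their library.

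By number of peaks, Ttn and Neb came first. Ttn, the titin of muscle sarcomeres, had 58, 31 and 45 peaks in its span of 278578 bases on chromosome 2. Neb, the thin-filament protein nebulin, had 52, 28 and 50. Both counts were lowest in replicate 2. Of the 79 merged regions of Ttn, 16 were in all 3 lists and 42 in 1 list, and of the 68 of Neb, 18 were in all 3 and 24 in 1. Ttn scores reached 2055, 3100 and 3100.

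Of the 15 genes with the most peaks, Syne2 had 36, 43 and 39 peaks, and Dst, a plakin that joins filament systems, had 36, 38 and 31. Macf1, another plakin, had 28, 18 and 22, and Utrn, the dystrophin relative utrophin, had 18, 28 and 21. Ktn1 had 25, 26 and 23 peaks, and 18 of its 30 regions were in all 3 lists. These counts differed between lists by less than those of Ttn and Neb in Syne2, Dst and Ktn1, and the order of the lists was not the same in each gene.

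Cep290, a protein of the ciliary transition zone, had 29, 24 and 28 peaks. Akap9, a scaffold of centrosome and Golgi, had 26, 20 and 20, and Cntrl, the centrosomal protein centriolin, had 17, 22 and 18. Cenpe, a kinetochore kinesin, had 21, 20 and 16. Others were Sycp1 (24, 22 and 19), the remodeller gene Chd2 (21, 17 and 18) and Ankrd26 (22, 12 and 21). Of the 15 genes, Sycp1 had the largest share of its regions in all 3 lists, 19 of 24.

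**Figure D2:**
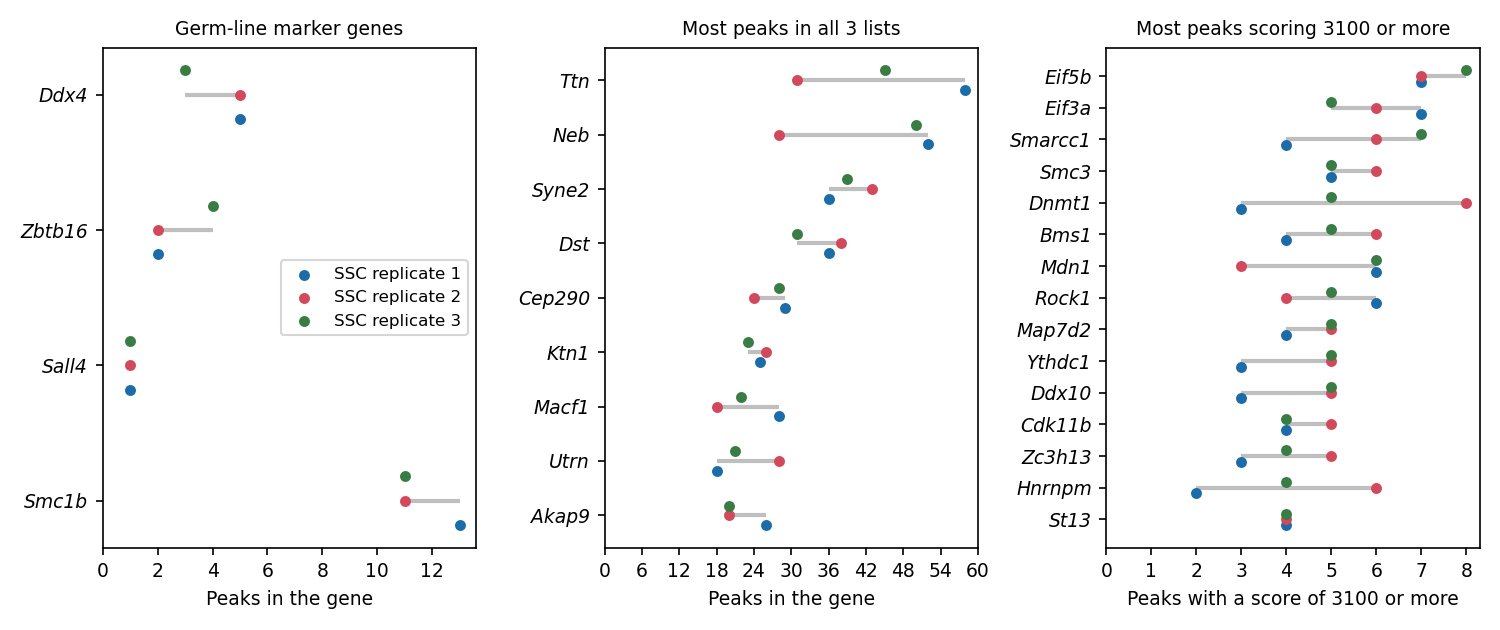
Peaks per gene in each of the 3 SSC lists for the 4 marker genes (left) and the 9 genes with the most peaks (middle), and peaks with a score of 3100 or more for the 15 genes with most of them (right). Points are lists and grey lines span the lowest and highest list; Ttn spans 31 to 58 peaks, and St13 has 4 capped peaks in each list.

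Peaks with a score of 3100 or more, called capped peaks here, form a smaller set that the score itself defines. A score of exactly 3100 was held by 982, 1425 and 1063 peaks, and 3.73%, 7.56% and 4.50% of the peaks scored 3100 or more. Genes with such a peak numbered 735, 1020 and 796, and 445 genes (2.03% of 21887) had one in all 3 lists. Their median span was 34403 bases. For 444 of the 445 the lowest of the 3 best scores was exactly 3100, so they are tied and have no order among themselves. Aamp, Abcf2, Acbd3, Acin1 and Adgrg6 are 5 of these ties in alphabetical order. Just outside lay Hat1 with a lowest best score of 3075, Morf4l1 with 3071, Myh9 with 3067, Taf7l2 with 3062 and Usp47 with 3060. Of the capped peaks, 88.2%, 88.1% and 90.9% were in regions of all 3 lists.

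By number of capped peaks, Eif5b and Eif3a came first. Eif5b had 7, 7 and 8 capped peaks among its 10, 9 and 9. Eif3a, a subunit of the initiation factor that recruits mRNA, had 7, 6 and 5. Bms1 and Mdn1, both needed to build ribosomal subunits, had 4, 6 and 5 and 6, 3 and 6. Bms1 had 8 peaks in each list, and all 8 of its regions were in all 3 lists. Ddx10, a helicase of ribosome assembly, had 11 peaks in each list, of which 3, 5 and 5 were capped.

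Smarcc1, a core subunit of BAF remodelling complexes, had 4, 6 and 7 capped peaks. Smc3, a ring subunit of cohesin, had 5, 6 and 5, and all of its 10 regions were in at least 2 lists, 8 of them in all 3. Dnmt1, the maintenance DNA methyltransferase, had 3, 8 and 5 capped peaks among 9, 11 and 11, so its count of capped peaks varied more between lists than its count of peaks.

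The nuclear m6A reader gene Ythdc1 had 3, 5 and 5 capped peaks among 5, 6 and 6, and Zc3h13, a regulatory subunit of the m6A writer complex, had 3, 5 and 4 among 12, 11 and 10. Hnrnpm, a splicing regulator, had 2, 6 and 4, and Cdk11b, a kinase tied to splicing, had 4, 5 and 4. The last 3 of the 15 were the kinase gene Rock1 (6, 4 and 5), Map7d2 (4, 5 and 5) and the co-chaperone gene St13 (4, 4 and 4).

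Among the germ-line markers, Smc1b, the cohesin subunit of meiosis, had 13, 11 and 11 peaks in its span of 67269 bases on chromosome 15. Of its 15 regions 8 were in all 3 lists. The region chr15:85120618-85120758 scored 3100, 2761 and 3100, and chr15:85090872-85091017 scored 2724, 3111 and 1626. Of its 35 peaks over the 3 lists, 8 fell in the first decile of the span, its first 10%, and 0 in the last.

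Ddx4, the germ cell RNA helicase of nuage, had 5, 5 and 3 peaks in 7 regions on chromosome 13. The 3 regions found in all lists were short, of 143, 78 and 87 bases. The most 5′ of them, chr13:112651332-112651418, lay at 2.32% of the span and scored 257, 274 and 859. Best scores in the gene were 1174, 725 and 859, and 0 peaks were capped.

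Zbtb16 encodes PLZF, a zinc finger repressor needed for self-renewal, and had 2, 2 and 4 peaks. Near the gene's end, peaks of all 3 lists merged into a region of 3075 bases, chr9:48654297-48657371, with scores of 3100, 154 and 1151. The replicate 1 peak that scored 3100 was itself 0.554 kb long. The other shared region, chr9:48836054-48836222, lay at the gene's start and scored 555, 246 and 332. The score at the gene's end thus ranged from 3100 in replicate 1 to the 40.4th percentile of replicate 2. Sall4, a transcription factor of undifferentiated spermatogonia, had 1 peak in each list. They merged into the region chr2:168754434-168756800, 2367 bases long and 61.4% along the span. The peaks scored 623, 54.2 and 2455, which in replicate 2 is the 3.37th percentile, close to that list's lowest score.

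Genes that the series title names had between 0 and 4 peaks in a list. Ccnd1, cyclin D1, had 0 peaks in each list. Nfkbia had 2, 1 and 1, and only its start peak was in all 3 lists. Nfkb1, the p105 and p50 subunit of NF-κB, had 3, 4 and 3 peaks in 7 regions, of which 0 were in all 3 lists, so the gene had a peak in each list but not at the same place. Rela, the p65 subunit, had 1, 0 and 2 peaks in 3 regions, each in 1 list. Ythdf1, the cytoplasmic m6A reader, had 2, 1 and 2 peaks. Its shared region, chr2:180910687-180912207, is 1521 bases long when merged over the lists, and its peaks scored 553, 908 and 330.

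Along genes, SSC peaks gathered at both ends of the span. Position was counted from the gene's start to its end by the peak's strand, over the whole genomic span with introns, since exon models were not used. The last decile of the span held 25.0%, 20.6% and 22.2% of the placed peaks, a mean of 22.6% ± 2.26 (SD, n = 3). The first decile held 11.1%, 15% and 16.5%, a mean of 14.2% ± 2.78. The fifth decile held 7.03% ± 0.276 and the ninth 12.6% ± 0.439. Replicate 1 was lowest at the start and highest at the end, and all 3 lists were above 10%, the share of an even spread, at both ends.

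**Figure D3:**
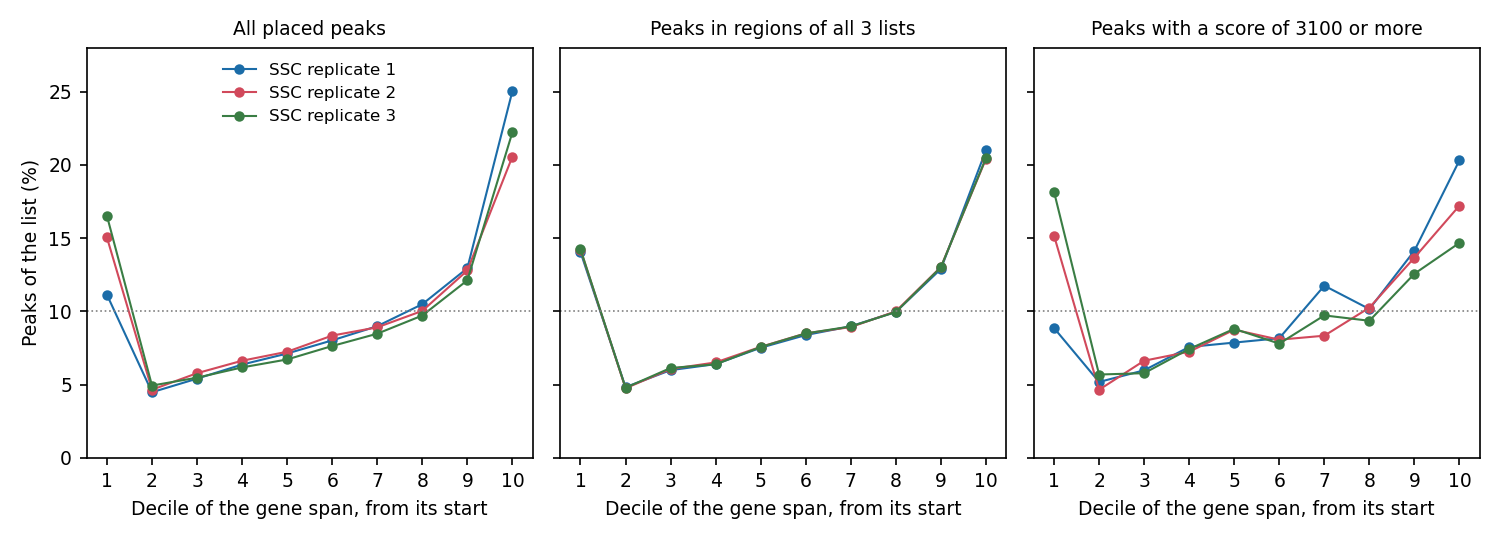
Share of peaks (%) by decile of the gene span from start to end, 1 line for each SSC list, for all placed peaks, peaks in regions of all 3 lists and peaks with a score of 3100 or more; the dotted line is an even spread of 10%. The last decile is highest for all placed peaks, at 20.6% to 25.0%.

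The shares at both ends varied between subsets of SSC peaks. Regions in all 3 lists had 14.2% ± 0.104 of their peaks in the first decile and 20.6% ± 0.323 in the last, and the small SD follows from the lists sharing the regions. Capped peaks had 14.1% ± 4.75 and 17.4% ± 2.82, but the lists differed in order: the first decile held 8.86%, 15.2% and 18.2% and the last 20.3%, 17.2% and 14.7%, so that in replicate 3 the first held more. A peak that was alone in its gene lay in the last decile in 31.3% ± 3.48 of cases and in the first in 17.0% ± 3.92. In genes with 10 or more peaks these shares were 13.3% ± 1.73 and 6.39% ± 0.751, the first decile being under the 10% of an even spread. Genes under 5 kb had 14.7% of their peaks in the last decile, and genes of 100 kb or more had 27.7%.

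Classes differed in where along the gene their peaks lay. Cytosolic ribosomal protein genes had 48.5% ± 6.23 of their peaks in the last decile, and solute carriers 33.3% ± 2.02. Zfp zinc finger genes, whose repeated fingers usually lie in a large final exon, had 28.5% ± 3.52. Meiotic cohesin and synaptonemal complex genes had 10.4% ± 1.86 there, piRNA pathway genes 10.5% ± 2.90 and kinesins 12.7% ± 1.54. In the first decile, complex I subunits had 30.9% ± 5.70 and proteasome subunits 28.2% ± 3.62, against 5.95% ± 1.68 for chromatin remodellers and 4.12% ± 2.02 for collagens. Values are the mean and SD of 3 lists, beside 22.6% and 14.2% over all genes. Some rest on few peaks: 26, 24 and 20 in the 3 lists for ribosomal proteins. Complex I subunits had 36, 35 and 44 peaks and proteasome subunits 40, 32 and 28. Gene span was not held equal between these classes, and its part in the differences was not tested.

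Functional classes were described with 44 gene lists, each read against 28.4% of all protein-coding genes with a peak in all 3 SSC lists. The share was above that background in 35 of the 44, and olfactory receptors alone are 1106 of the 21887 genes in it. All comparisons of classes are counts of their members.

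**Figure D4:**
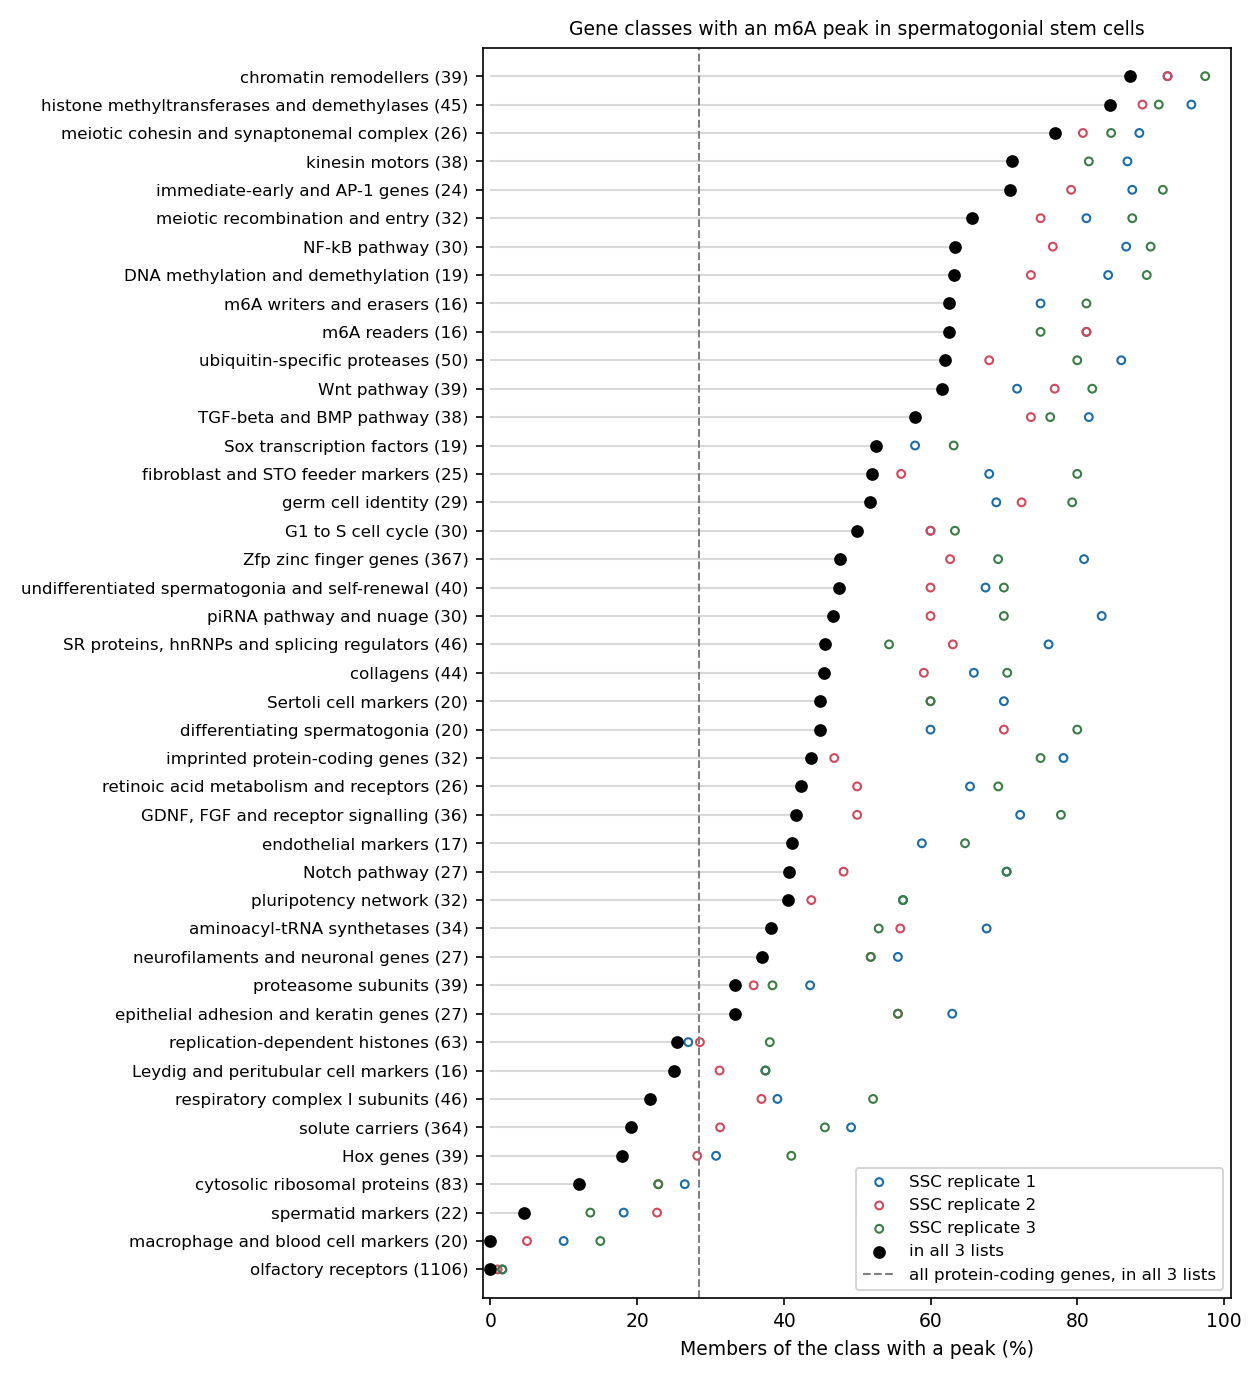
Share of each gene class (%) with a peak in all 3 SSC lists (black points) and in each list (open points), for 43 classes with their member number in brackets; the dashed line is the share of all protein-coding genes with a peak in all 3 lists, 28.4%. Chromatin remodellers are highest at 87.2%, and olfactory receptors and macrophage and blood cell markers are at 0%.

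Among the genes of stem cell identity, 19 of 40 undifferentiated spermatogonia and self-renewal genes (47.5%) had a peak in all 3 lists, and 7 had none. Taf4b, a TFIID subunit needed for germ cell maintenance, had 10, 5 and 4 peaks. Zfp462 had 8, 7 and 8, the adhesion gene Epcam 4, 4 and 4, and the integrin gene Itga6, used to sort these cells, 3, 3 and 3. Gfra1, the GDNF co-receptor, and the GDNF-responsive factor Bcl6b had 0 in each list, as did Lin28a and Ccnd2. Lin28b, the paralogue of Lin28a, had 4, 2 and 3.

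Genes of the next step were similar in share, with 9 of 20 differentiating spermatogonia genes (45.0%) in all 3 lists. Stra8, the retinoic acid target that opens meiosis, had 2, 3 and 2 peaks, of which 1, 3 and 2 were capped. Tex14, a component of germ cell bridges, had 6, 7 and 6, and the retinoic acid receptor genes Rara and Rarg had 5, 4 and 3 and 2, 2 and 3. Kitl, which is also among the Sertoli cell markers used here, had 4, 6 and 3. Ccnd1 and Ccna2 had 0. Germ cell identity genes stood at 15 of 29 (51.7%), with Rnf17, a tudor protein of germ granules, at 12, 7 and 3 peaks and Dppa3, Dnd1 and Prdm14 at 0.

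Of 26 cohesin and synaptonemal complex genes, 20 (76.9%) had a peak in all 3 lists, and 8 (30.8%) had a capped peak in all 3 against 2.03% of all genes. The median member had 4.67 peaks, against 0.333 over all genes, with a median span of 43187 bases. Nipbl, the cohesin loader, had 13, 10 and 8 peaks, and the cohesin subunit gene Stag2 had 12, 10 and 7. Sycp2, a lateral element of the synaptonemal complex, had 14, 6 and 6. Rec8, the meiotic kleisin, had 0 in each list, as did Hormad2 and Meikin. Several of these genes serve mitotic cohesin too, namely Smc1a, Smc3, Rad21, Stag1, Stag2, Wapl, Pds5a, Pds5b and Nipbl. Of the 8 with a capped peak in all 3 lists, 6 are among these, and the meiotic genes Smc1b and Sycp1 are the others.

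Meiotic recombination and entry genes followed with 21 of 32 (65.6%). Brca2, a loader of recombinases, had 9, 6 and 3 peaks, Zcwpw1, a reader of recombination sites, 3, 6 and 4, and Meioc, which promotes meiotic entry, 4, 3 and 3. Hfm1 had 5, 0 and 6. The piRNA pathway, which silences transposons, had 14 of 30 members (46.7%) in all 3 lists. Capped peaks in all 3 were in 0 of the 30, beside 2.03% of all genes. Morc1 had 7, 3 and 7 peaks and Tdrkh 4, 4 and 5.

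In the m6A system, 10 of 16 writers and erasers and 10 of 16 readers (62.5% each) had a peak in all 3 lists. Mettl3, the catalytic writer, had 0 in each list, and its partner gene Mettl14 had 8, 7 and 7. The writer subunit genes Virma and Wtap had 7, 6 and 4 and 5, 3 and 2. The eraser gene Fto had 6, 2 and 2, and Alkbh5 had 0, 0 and 1. Of the readers, Fmr1 had 9, 7 and 6 peaks, its relative Fxr1 9, 7 and 5, Ythdf2 2, 1 and 1, and Ythdf3 4, 3 and 0. Igf2bp1, Igf2bp2 and Igf2bp3 each had a peak in all 3 lists, with 2, 2 and 2, 3, 3 and 3, and 3, 2 and 3.

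NF-κB pathway genes had 19 of 30 members (63.3%) in all 3 lists, and every member had a peak in at least 1 list. Tnip1, an inhibitor of the pathway, had 3, 6 and 9 peaks, Btrc, which marks IκB for degradation, 6, 4 and 7, and the deubiquitinase gene Cyld 6, 2 and 3. G1 to S cell cycle genes stood at 15 of 30 (50%), with 9 members at 0 peaks. Rb1, the retinoblastoma gene, had 9, 4 and 6 and E2f7 4, 6 and 4, whereas Ccnd1, Ccnd2, Cdk2 and Cdk4 had 0 in each list.

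Chromatin remodellers had the largest share of the 43 classes other than the 4 markers, 34 of 39 (87.2%). A capped peak in all 3 lists was found in 17 of 39 (43.6%), beside 2.03% of all genes. The median member had 6.33 peaks, and the median span was 77476 bases. Bptf, the largest subunit of NURF, had 17, 14 and 15 peaks, Baz2b had 15 in each list, and the CHARGE syndrome gene Chd7 had 13, 14 and 16. Smarcb1, a BAF core subunit, had 0. Histone methyltransferases and demethylases were close behind at 38 of 45 (84.4%), with Kmt2c at 13, 15 and 11, Kmt2e at 16, 11 and 9 and the H3K36 methyltransferase gene Setd2 at 8, 11 and 11. Their median span was 70154 bases. Suv39h1 and Setdb2 had 0.

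DNA methylation genes had 12 of 19 members (63.2%) in all 3 lists and 0 members without a peak. Tet3 and Tet2, dioxygenases that oxidise 5-methylcytosine, had 4, 4 and 7 and 3, 4 and 6 peaks, and the de novo methyltransferase gene Dnmt3a had 2, 6 and 5. Imprinted protein-coding genes stood at 14 of 32 (43.8%), or 37.5% without peaks that lie over a long non-coding RNA on its strand. The share of them with a peak was 78.1% in replicate 1, 46.9% in replicate 2 and 75% in replicate 3. Over all genes these single-list shares were 45.3%, 37.3% and 45.4%.

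Long motor and protease families were also above the background. Kinesins, the microtubule motors, had 27 of 38 members (71.1%) in all 3 lists, with Kif20b at 16, 14 and 14 peaks and Kif20a at 0. Ubiquitin-specific proteases had 31 of 50 (62.0%), with Usp8 at 12, 9 and 10. Zfp zinc finger genes had 175 of 367 (47.7%). Their share with a peak in single lists was 80.9%, 62.7% and 69.2%, beside 45.3%, 37.3% and 45.4% of all genes. Zfp638 had 14, 6 and 4 peaks, and most Zfp genes had few, with a median of 1 peak.

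Immediate-early genes were high in share although short. Of 24, 17 (70.8%) had a peak in all 3 lists, with a median span of 4021 bases. Fosb had 2, 2 and 2 peaks, Egr1 2, 1 and 2, Atf3 3, 3 and 2 and Nr4a3 3, 1 and 5, and Fos had 0. For comparison, 7.59% of genes under 5 kb had a peak in all 3 lists.

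Apart from the NF-κB pathway, signalling pathways lay between 40.7% and 61.5%. Wnt pathway genes had 24 of 39 (61.5%), with Apc at 7, 4 and 8 peaks and Axin2 at 3, 4 and 6. TGF-β and BMP pathway genes had 22 of 38 (57.9%), with Smad5 at 4, 3 and 5 and Smad7 at 3, 3 and 5. Retinoic acid genes had 11 of 26 (42.3%), with the co-repressor gene Ncor1 at 18, 14 and 9. GDNF, FGF and receptor signalling genes had 15 of 36 (41.7%, or 63.9% without replicate 2, where all genes came to 35.6%), with Sos1 at 16, 7 and 7, Pik3r1 at 5, 5 and 5 and the LIF receptor gene Lifr at 4, 4 and 4. Notch genes had 11 of 27 (40.7%), with the sheddase gene Adam10 at 5, 3 and 3.

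Splicing regulators split within the class. Of 46 SR proteins and hnRNPs, 21 (45.7%) had a peak in all 3 lists and 8 (17.4%) a capped one in all 3, beside 2.03% of all genes. Srrm1 had 8, 7 and 5 peaks and Qk 8, 6 and 5. Srsf1, Srsf2, Srsf3 and Srsf5, which encode SR proteins, had 0 in each list. Pluripotency genes had 13 of 32 (40.6%), with Klf4 at 3, 2 and 2, Jarid2 at 6, 3 and 5 and Nanog at 0. Sox genes had 10 of 19 (52.6%), and Sox2 had 1 capped peak in each list.

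Classes near or below the background were mostly of short genes. Cytosolic ribosomal proteins had 10 of 83 (12.0%) in all 3 lists and 52 with no peak, with a median span of 3175 bases, and Rpl22 had 1, 2 and 2. Their many processed copies may share reads. Complex I subunits of the respiratory chain had 10 of 46 (21.7%, or 32.6% without replicate 2), with Ndufa10 at 7, 4 and 4, and proteasome subunits had 13 of 39 (33.3%), with Psmd12 at 6, 7 and 3. Aminoacyl-tRNA synthetases, which charge tRNAs, had 13 of 34 (38.2%), with Lars at 7, 4 and 5. Solute carriers had 70 of 364 (19%, or 34.1% without replicate 2), although their median span was 28619 bases, with Slc4a7 at 7, 5 and 6. Without replicate 2 all genes came to 35.6%, above both complex I subunits and solute carriers. Hox genes had 7 of 39 (17.9%).

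Of 63 replication-dependent histone genes, 16 (25.4%) had a peak in all 3 lists, against 7.59% of genes under 5 kb and 28.4% of all, and 39 had none. A capped peak in all 3 lists was found in 9 (14.3%), against 2.03% of all genes. Their median span was 492 bases, and the genes with peaks had 1 peak each at the median. Olfactory receptors had 0 of 1106 in all 3 lists (0.271% without replicate 2 and 0.362% without replicate 3) and 1066 with no peak, and macrophage and blood cell markers had 0 of 20, with Ptprc, Cd68, Adgre1 and Csf1r at 0 peaks.

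Markers of other cells in or near the culture also carried peaks. Of 25 fibroblast and STO feeder markers, 13 (52.0%) had a peak in all 3 lists, with Col5a1 at 4, 9 and 9 peaks, Fn1 at 11, 3 and 4, Acta2 at 3, 3 and 4 and Pdgfra at 5, 1 and 4. The 4 members without a peak in any list were S100a4, Tagln, Postn and Fap, and 8 had one in 1 or 2 lists, such as Col1a1 with 0, 0 and 2. Of 44 collagens, 20 (45.5%) were in all 3 lists, with Col12a1 at 12, 12 and 8. The share of feeder RNA in the 3 libraries, and its part in any gene's peaks, was not tested.

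Testis somatic markers were mixed. Sertoli cell markers had 9 of 20 (45.0%), with Clu at 4, 4 and 3 and Sox9 at 3, 3 and 3, and Fshr, Amhr2 and Rhox5 at 0. Leydig and peritubular markers had 4 of 16 (25.0%), with the smooth muscle myosin gene Myh11 at 13, 13 and 10, and the steroidogenic genes Cyp11a1, Cyp17a1, Hsd3b6 and Hsd17b3 at 0. Spermatid markers had 1 of 22 (4.55%, or 13.6% without replicate 3, where all genes came to 31.8%). It was Odf2 at 1, 3 and 5, and the protamine genes Prm1 and Prm2 had 0. Endothelial markers had 7 of 17 (41.2%), with Flt1 at 7, 2 and 7 and Cldn5 at 0. Neurofilament and neuronal genes had 10 of 27 (37.0%), with Nefh at 5, 4 and 5 and Dcx, Gap43 and Stmn2 at 0. Epithelial adhesion and keratin genes had 9 of 27 (33.3%), with the tight junction gene Tjp1 at 8, 6 and 4.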

How the data were processed

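Peak lists of 3 SSC m6A IP libraries were analysed, and peaks of the iNSC lists were counted for the named genes and are given only in the check of the labels. Tools listed, with no role, are cutadapt 1.9.3 and HISAT2 2.0.4, and the build listed is mm9, per the submitters' processing notes. The peak caller is not given in the sources used here. Column 5 is the authors' deposited score, whose unit is not stated; it starts at 50, and many peaks score exactly 3100. Peak edges matched gene edges of RefSeq GRCm38.p6 for 5.01%, 6.08% and 6.07% of peaks, against at most 0.0145% after a shift of 10000 bases, so coordinates are given on GRCm38, 1-based.

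Peaks sharing 1 base or more with the span of a protein-coding gene were placed in it, and peaks over several spans in the gene on their strand. This placed 27055, 19395 and 24280 peaks (98.1% ± 0.170); 199, 121 and 174 stayed ambiguous and 343, 212 and 321 met no such gene. The strand was in the promoter table for 17492 of 21887 genes (79.9%), and peaks over 1 span lay on it in 99.5% to 99.6%. Placement was tested on simulated data. Python 3.11.15 with pandas 2.3.3 and scipy 1.17.1 was used. With 1 cell type there is no contrast, so no test was run. The lists hold no read counts: the depth is unknown, and no interval for counting error or detection limit could be set. Exact 95% binomial intervals over class members served only to judge how far class shares moved under the alternatives.

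Genes named are the 4 markers, the genes of the series title, the 15 genes with most peaks, the 15 with most capped peaks, genes next to the threshold, and up to 6 members with most peaks and 4 without any from each list. A few genes that this rule selects are not reported here. Other list members were named after their values were seen. The members and lists were chosen with earlier results of these data known. Alternatives were score, length, width and placement filters and leaving out each list.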

Additional observations from a re-analysis of the deposited data

How the results depend on the processing

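The 6220 genes with a peak in all 3 lists came to 6925, 7790 and 6964 without SSC replicate 1, 2 or 3, to 3419 with only the better-scoring 50% of peaks per list, and to 9239 for a peak in at least 2 of 3 lists. The 445 genes with a capped peak in all 3 lists came to 803 for at least 2 of 3 lists and to 677 for a score of 2000 or more, and to between 505 and 642 with 1 list left out. Peaks per gene fell from 2.52 to 2.00 in the better-scoring 50%, to 2.31 with lists reduced to the shortest and to 2.16 with peaks of at least 100 bases. The last decile of the span held 26.7% with each gene counted once. Of the 44 lists, 5 changed side of the background in 1 setting: proteasome subunits for at least 2 of 3 lists, and replication-dependent histones, Notch, retinoic acid and neuronal genes in the better-scoring 50%. Left out after seeing the data, peaks over a long non-coding RNA on its strand changed 6220 to 6206. For these changes the cause was not tested. No paired analysis was possible because the results come from counts within 1 cell type and from no test. Without read counts, a missing peak does not show that a site is unmethylated.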

Other observations

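Peaks placed in Kcnq1, an imprinted potassium channel gene, lay over another transcript. Kcnq1 held 22, 9 and 17 SSC peaks in the 3 lists, and all 22, 9 and 17 lay over Kcnq1ot1 on its minus strand. Kcnq1ot1 is the long non-coding RNA that silences neighbouring imprinted genes in cis, and the promoter table holds no strand for Kcnq1. Over all genes such overlaps were few, with 72, 45 and 60 placed peaks over an annotated long non-coding RNA on its strand (0.266%, 0.232% and 0.247%). Zfp91, a zinc finger gene, had 3, 3 and 2 peaks that all lay over such a transcript on the same strand, and so did the single peak of Sox4 in each list.

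By chromosome, the share of protein-coding genes with a peak in all 3 SSC lists ran from 20.6% on chromosome 7 to 36.4% on chromosome 12 among the autosomes. It was 23.5% on the X, with 227 of 966 genes, and 4.69% on the Y, with 12 of 256. Of these 12, 4 have established names. Usp9y, a ubiquitin protease gene, had 10, 1 and 2 peaks, Ddx3y, an RNA helicase gene, 6, 2 and 2, Kdm5d, a histone demethylase gene, 4, 1 and 3, and Zfy1, a zinc finger gene, 3, 1 and 1. All 4 had their highest count in replicate 1. Outside protein-coding genes, annotated pseudogenes held 102, 70 and 97 peaks and long non-coding RNAs 75, 48 and 69, and 113, 64 and 110 peaks met no annotated gene.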
